A study of Homo sapiens with 18 samples.

Results

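The comparison set 2 established human endometrial cancer cell lines side by side without added growth factor. Hec-1A comes from an endometrial adenocarcinoma, a gland-forming tumour, and RL95-2 from an adenosquamous carcinoma, which mixes glandular with squamous (skin-like) cells. The comparison used the 3 Hec-1A arrays and the 3 RL95-2 arrays treated with control IgG, an antibody without a target in the study, which are 6 of the 18 arrays of the series, chosen by cell line and treatment in the labels. The 12 other arrays carried the same lines under PDGF-AA, a platelet-derived growth factor dimer, or PDGF-AA + 3G3, where 3G3 is an antibody, and served as a check in other samples of the lines. Both groups compared therefore shared the IgG, and no arrays without antibody and growth factor were analysed here. The labels give neither dose nor duration, and each line is a single line, so a difference between them belongs to these lines and not to their tumour types. Total RNA was amplified to biotin-labelled cRNA and hybridised to Illumina bead arrays with 47231 probes, of which 30113 carried 1 gene symbol and stood for 20046 genes. The labels do not say that the 3 replicates of a line were separate cultures, so the spread between them, and every p-value, may be technical.

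The lining of the uterus derives from the Müllerian duct, and its epithelium is marked by the transcription factors PAX8 and SOX17. Cancer lines of one organ commonly differ in the lineage programme they keep, in genes that are switched off in a single line, and in the copy number of whole chromosomes. Carcinoma cells also differ in how they make lipids, serine and nucleotides, and in the Notch, growth factor and inflammatory signals they produce. The values below are the authors' processed log2 values, on which 1 unit is a factor of 2 and the median of every array was 6.64. Background was left in these values, so a gene near 6.64 is at background and the fold changes of dim genes are understated. A gene was called at an adjusted p under 0.05 in limma, a linear model with moderated spread, with Benjamini-Hochberg adjustment over all 47231 probes, and each gene stands by its brightest probe.

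The 3 RL95-2 arrays correlated with each other at 0.995 or more across all probes. Hec-1A replicates 2 and 3 correlated at 0.996, whereas Hec-1A replicate 1 correlated with them at 0.973 and 0.978. Among the 7921 genes whose mean lay above the 75th percentile of the arrays (7.28), the median distance of replicate 1 from the mean of its 2 fellows was 0.30, against 0.21 and 0.14 for Hec-1A replicates 2 and 3 and 0.086 to 0.099 for the RL95-2 arrays. Of these genes 508 lay at least 2-fold away on replicate 1, 337 above and 171 below. The same count was 27 and 23 on Hec-1A replicates 2 and 3 and 0 on each RL95-2 array. The 75th percentile of its signal before normalization was 185.9, against 157.6 and 159.5 on its fellows. Counts of gene groups are therefore also given without replicate 1 wherever they changed. Where leaving out 1 array moved such a count by over 1.5 times, the counts "with arrays left out in turn" follow it, in the order Hec-1A replicates 1, 2 and 3 and then RL95-2 replicates 1, 2 and 3, and another scaling or fit stands beside a count that it moved as far.

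The lines differed widely, almost evenly in both directions. Of the 47231 probes 8928 were called (18.9%), 4411 higher (9.34%) and 4517 lower (9.56%) in Hec-1A, and 12969 had an unadjusted p under 0.05. Of the 20046 genes 5601 were called (27.9%), 2668 higher (13.3%) and 2933 lower (14.6%), and 1666 of them differed at least 2-fold. The arrays of the lines did not overlap for 8735 genes (43.6%). Without normalization between arrays 7849 probes were called, with the median of all probes at 0.10. Of these calls 64.1% were higher in Hec-1A, against 49.4% of the main calls. With scaling to a common median the share was 50.7%, so the even split depends on some scaling between arrays, quantile or median. Without Hec-1A replicate 1 the count of probes rose to 11191 (23.7%, with 12.4% higher and 11.3% lower) and that of genes to 7053 (35.2%), with 17.7% higher and 17.4% lower. Both fits called 5503 genes, 0 of them with opposite signs. A further 1550 genes were called only without replicate 1, and 98 only with it, none of which differed by more than 0.26. In bulk RNA, fewer cells that express a gene and less of its RNA per cell cannot be told apart.

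**Figure D1:**
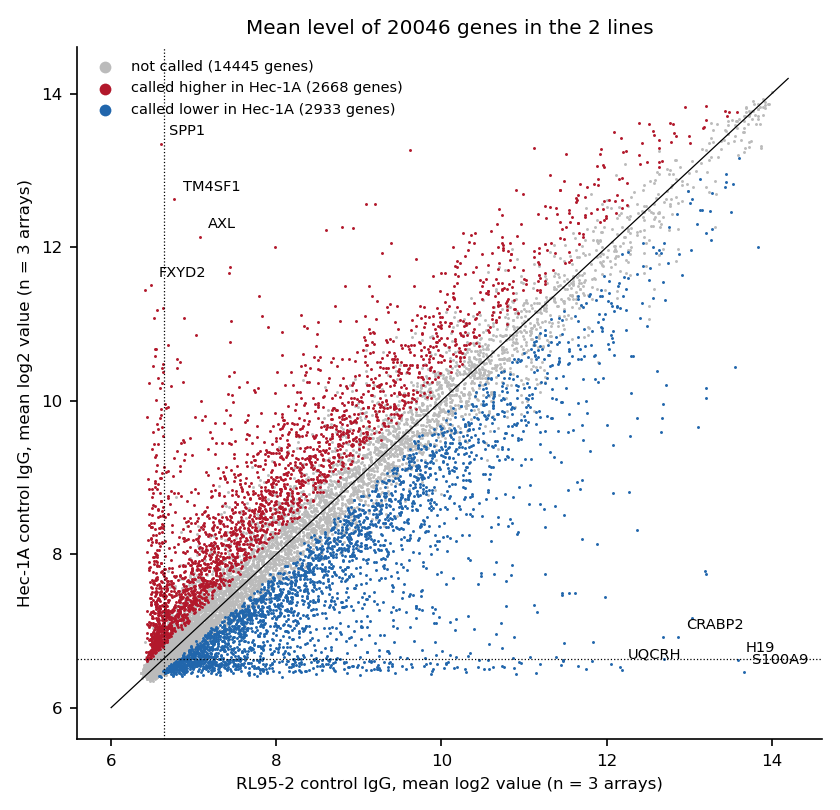
Mean log2 value of 20046 genes over the 3 RL95-2 (horizontal axis) and the 3 Hec-1A (vertical axis) control IgG arrays. Points in colour are the 2668 genes called higher and the 2933 called lower in Hec-1A, the line marks equal levels, and the dotted lines mark the array median of 6.64, along which lie genes at background in 1 line.

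The treated arrays of the same lines, which took no part in these calls, mostly gave the same direction. Of the 5601 called genes 5366 (95.8%) had the same sign on the 12 treated arrays, where 12461 probes (26.4%) were called, 13.6% higher and 12.8% lower. By gene, 37.9% were called there, 19.1% higher and 18.7% lower. The share was 94.5% for the 3935 genes that differed less than 2-fold, 98.5% for the 1249 between 2-fold and 4-fold, and 417 of 417 above that. The median ratio of the treated to the control difference was 0.71, 0.79 and 0.93 in these groups, so most differences were smaller on the treated arrays. Only 14 genes were called on the treated arrays with the opposite sign. Of the genes called without replicate 1, 92.9% kept their sign there. The treated and control arrays share the lines and the normalization, so these shares are no independent test. No share over all genes is given beside them.

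At the head of the differences stood genes at background in 1 line and bright in the other. In all, 42 genes were at least 8-fold higher in RL95-2 with a mean at or below the array median in Hec-1A, and 23 were the reverse. The former were at background on replicate 1 too, which follows from their choice by the Hec-1A mean. On the 23 genes of the reverse set, replicate 1 lay between -1.74 and 1.70 from its fellows (median 0.36). All 65 were called without replicate 1 and had the same sign on the treated arrays.

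The sequence of 250 bases before the annotated start is shown for 4 of these genes, because each was at background in 1 line and bright in the other. S100A9 and S100A8, which encode the 2 chains of calprotectin, and UQCRH, a subunit of respiratory complex III, were at background in Hec-1A. SPP1, the gene of osteopontin, a secreted phosphoprotein of matrix and fluids, was at background in RL95-2. The sequences are from RefSeq (GRCh38.p14), 5′ to 3′ on the strand of the gene, at chr1:153357604-153357853 (plus strand) for S100A9, chr1:153391189-153391438 (minus strand) for S100A8, chr4:87975464-87975713 (plus strand) for SPP1 and chr1:46303448-46303697 (plus strand) for UQCRH. Capitals mark a TATAAA box in S100A9 and the dinucleotide CG in the others.
S100A9: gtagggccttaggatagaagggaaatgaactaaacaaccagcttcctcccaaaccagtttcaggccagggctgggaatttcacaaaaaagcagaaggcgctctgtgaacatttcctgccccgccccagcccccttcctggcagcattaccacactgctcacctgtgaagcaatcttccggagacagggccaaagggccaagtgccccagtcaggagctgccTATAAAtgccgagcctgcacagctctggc
S100A8: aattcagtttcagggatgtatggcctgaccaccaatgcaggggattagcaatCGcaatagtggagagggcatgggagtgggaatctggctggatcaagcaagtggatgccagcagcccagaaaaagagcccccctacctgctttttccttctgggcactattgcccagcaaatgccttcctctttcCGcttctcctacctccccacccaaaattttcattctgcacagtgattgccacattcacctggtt
SPP1: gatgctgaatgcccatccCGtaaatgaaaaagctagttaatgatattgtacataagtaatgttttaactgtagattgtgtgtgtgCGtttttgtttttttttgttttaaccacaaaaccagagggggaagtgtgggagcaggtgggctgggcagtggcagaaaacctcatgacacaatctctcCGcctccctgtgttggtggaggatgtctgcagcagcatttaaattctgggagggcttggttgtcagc
UQCRH: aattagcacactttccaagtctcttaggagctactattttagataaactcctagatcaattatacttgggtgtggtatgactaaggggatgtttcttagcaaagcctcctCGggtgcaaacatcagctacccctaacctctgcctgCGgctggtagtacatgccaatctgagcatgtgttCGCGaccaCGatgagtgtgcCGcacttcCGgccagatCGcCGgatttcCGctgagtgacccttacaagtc
The TATAAA box of S100A9 starts 29 bases before the annotated start. UQCRH holds 10 CG dinucleotides, S100A9 4, SPP1 3 and S100A8 2. The letters TATAAA on the strand of the gene, in the last 50 of the 250 bases, occur in 2.92% of the 27305 promoters of the table and in 3.76% of the 15034 that belong to measured genes. They occur in 2 of the 29 genes at background in Hec-1A, and in 2 of the 18 at background in RL95-2, that the table holds. The ratio of observed to expected CG had a median of 0.606 and 0.597 in these sets, against 0.556 in all 27305 promoters, 0.742 in the 15034 of measured genes and 0.845 in the 6600 of these above the 75th percentile, so that both sets lay above the first and below the others. These are descriptions of the windows, and a match is not a binding site.

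Among the genes higher in Hec-1A, SPP1 (chromosome 4) led. It stood at 13.59, 13.18 and 13.28 on Hec-1A replicates 1, 2 and 3 and at 6.64, 6.68 and 6.50 on the RL95-2 replicates. The RL95-2 arrays lay at background and no array overlapped, for a fold of at least 104 (adjusted p = 1.74e-07). TM4SF1, a tetraspan-like membrane protein of migrating cells, stood at 12.80, 12.45 and 12.64 against 6.68, 6.81 and 6.81, all Hec-1A arrays above all RL95-2 arrays (log2 difference 5.87 ± 0.09, SE, adjusted p = 1.5e-07). Its relative TM4SF4 was at least 27.8-fold higher. AXL, a receptor tyrosine kinase for the ligand GAS6, read 12.15, 12.02 and 12.25 in Hec-1A and 6.99, 7.15 and 7.09 in RL95-2, with replicate 1 between its fellows (5.06 ± 0.07, adjusted p = 1.13e-07). The matrix proteoglycan VCAN was at 11.85, 10.73 and 10.95 against 6.66, 6.49 and 6.51, and the membrane peptidase DPP4 at 11.83, 10.75 and 11.05 against 6.59, 6.67 and 6.62. Both were highest on replicate 1, and the lines did not overlap without it either (log2 differences of 4.29 and 4.27). FXYD2, a regulator of the sodium pump, went the other way on that array. It read 10.35, 12.25 and 11.92 in Hec-1A and 6.40, 6.49 and 6.54 in RL95-2, so replicate 1 was the lowest of its line yet far above every RL95-2 array (at least 29.2-fold, adjusted p = 0.00038).

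Enzymes and nutrient sensors were also in this set. ME1, the cytosolic malic enzyme that yields NADPH for lipid synthesis, read 11.20, 10.43 and 10.42 against 6.54, 6.54 and 6.53, or at least 16.5-fold higher, with replicate 1 on top. RRAGA, a small GTPase that reports amino acids to mTORC1, was the least variable of those named, at 10.59, 10.58 and 10.56 against 6.51, 6.57 and 6.51 (at least 15.3-fold, adjusted p = 6.15e-08). The arrays of each line lay close together. AKR1C3, a reductase of steroids and prostaglandins that shares much sequence with its paralogs, was higher by 4.23 ± 0.18 (adjusted p = 9.12e-06). The RNA-binding protein IGF2BP2 was higher by 4.30, the tumour suppressor HTATIP2 at least 16.2-fold and the synaptotagmin SYT13 at least 21.7-fold.

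**Figure D2:**
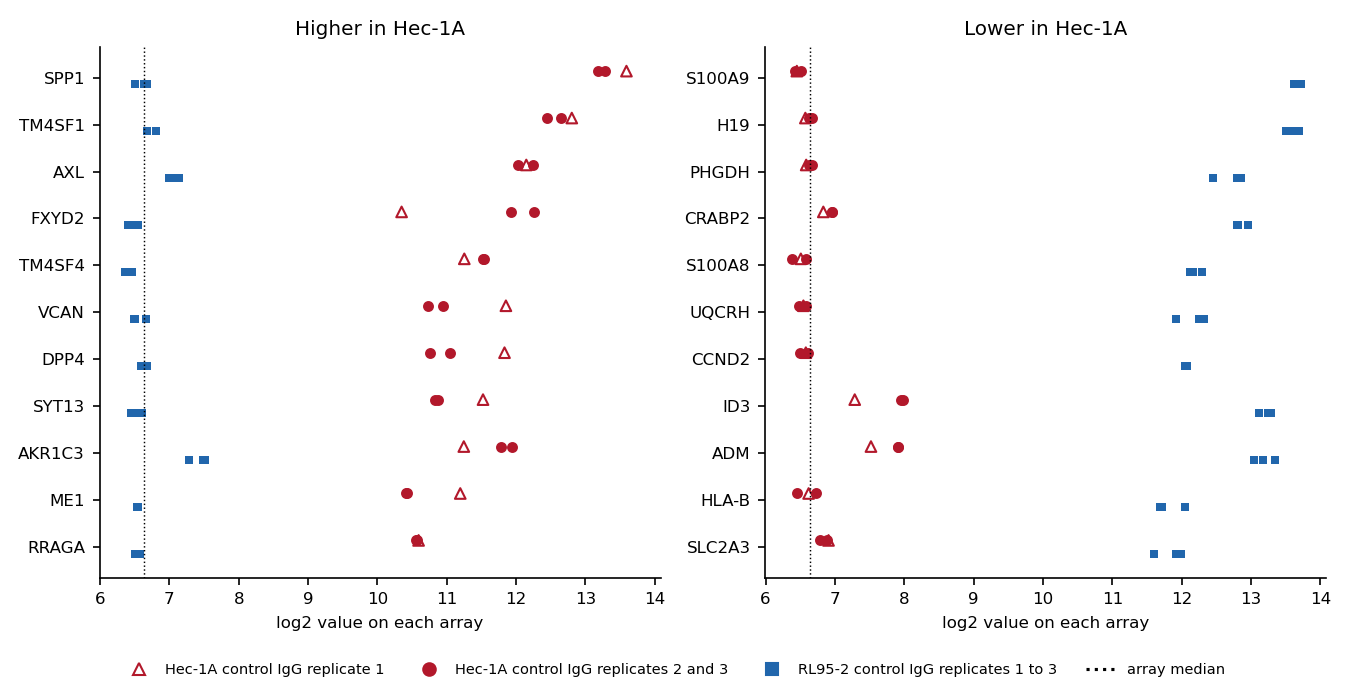
Log2 value on each control IgG array of 11 genes higher (left) and 11 lower (right) in Hec-1A. Hec-1A replicate 1 is the open triangle, Hec-1A replicates 2 and 3 are filled circles, RL95-2 arrays are squares and the dotted line is the array median of 6.64. No gene shown has overlapping lines, and replicate 1 is displaced in FXYD2, VCAN, DPP4, ME1 and ID3 but not in S100A9, H19 or UQCRH.

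Among the genes lower in Hec-1A, S100A9 (chromosome 1) stood at 6.45, 6.51 and 6.42 in Hec-1A and 13.62, 13.66 and 13.72 in RL95-2. All Hec-1A arrays were at background, replicate 1 included, and the fold was at least 130.3 (adjusted p = 2.76e-08). Its partner S100A8 was at least 47-fold lower, while the calcium-binding S100A4 was higher by 3.37 and S100A14 by 1.42, so the family did not move as 1 (17 measured, 4 higher and 5 lower; 7, 4, 4, 4, 4 and 4 higher with arrays left out in turn, 6 lower without replicate 1, 8 higher without normalization, 7 higher with array weights). H19, the imprinted noncoding RNA, read 6.57, 6.67 and 6.62 against 13.58, 13.50 and 13.68 (at least 123-fold). The line-up was the same for CCND2, a D-type cyclin of the G1 phase, at 6.58, 6.62 and 6.50 against 12.07, 12.05 and 12.04 (at least 42.7-fold, adjusted p = 3.59e-08). CRABP2, which carries retinoic acid to the nucleus, read 6.83, 6.96 and 6.95 against 12.80, 12.81 and 12.96, just above background in Hec-1A (-5.94 ± 0.06, adjusted p = 6.15e-08). The secreted vasodilator peptide ADM read 7.52, 7.90 and 7.92 against 13.17, 13.04 and 13.34, with replicate 1 the lowest array (-5.41). LCN2, an iron-siderophore binding protein, stood at -5.76, and OLR1, a scavenger receptor, and ADIRF, an adipogenesis regulator, were lower by at least 34.5-fold and 32.2-fold.

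Some of the remaining genes of the 65 were picked for description after their values were seen. Of those at background in Hec-1A, the matrix glycoproteins FBLN1 (at least 28-fold) and EFEMP1 (at least 17-fold) were lower. The basic helix-loop-helix factor ASCL2, a Wnt target of stem cells, was at least 23.5-fold lower, the calcium buffer CALB2 (calretinin) 28.2-fold and the redox regulator TXNIP, an inhibitor of glucose uptake, 18.9-fold. Among enzymes were HSD17B2, which oxidises oestradiol (at least 11.4-fold), CYP24A1, which degrades vitamin D (at least 11.7-fold), and KYNU of tryptophan breakdown (at least 9.47-fold). The GTPase RAC2 (at least 10.9-fold), the exchange factor VAV3 (at least 14.7-fold) and the antimicrobial peptide DEFB1 (at least 10.7-fold) were lower. Of those at background in RL95-2, Hec-1A had at least 13.7-fold more of the matrix protein SPON1, with cholinesterase BCHE at least 14.08-fold, the electron carrier CYB5A 14.05-fold and HSD17B11, a steroid and lipid droplet enzyme, 13.2-fold. The RNA-binding protein BICC1 (at least 12-fold) and the factor CREB5 (at least 9.41-fold) had the larger adjusted p-values of the set, 0.00123 and 0.00237. CREB5 read 11.02, 9.38 and 9.26 in Hec-1A and 6.51, 6.68 and 6.60 in RL95-2, and the spread of the Hec-1A arrays came from replicate 1.

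The markers of the lineage differed between the lines in both directions. PAX8 was present in both lines and higher in Hec-1A, at 9.46, 9.61 and 9.47 against 8.34, 8.44 and 8.59 (1.06 ± 0.08, adjusted p = 0.000145). SOX17, which works beside it, was above background in Hec-1A alone, at 7.58, 7.63 and 7.71 against 6.51, 6.52 and 6.40 (at least 2.01-fold). The homeobox factor MSX1 was lower in Hec-1A by contrast (-1.62), and the steroid receptors ESR1 and PGR lay at or below the array median in both lines. Of 12 measured endometrial and Müllerian markers 4 were higher and 5 lower (4, 3, 3, 2, 3 and 2 lower with arrays left out in turn, 1 lower without normalization). These and the following group counts stand beside 13.3% higher and 14.6% lower of all genes, and 24.9% and 27% of the 7921 bright genes above the 75th percentile. Group counts on the treated arrays stand beside 2828 higher and 2616 lower of these bright genes, and those without replicate 1 beside 2702 and 2671. A share near these is no result about a group.

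Both lines expressed epithelial genes, with different members on top. EPCAM, an epithelial adhesion molecule, had a mean of 13.26 ± 0.30 (SD, n = 3) in Hec-1A and 12.23 ± 0.10 in RL95-2 (1.02), and CDH1 (E-cadherin) one of 10.96 and 10.14, which did not pass (adjusted p = 0.0651). The placental cadherin CDH3 was at least 8.06-fold lower in Hec-1A. The epithelial factor ELF3 (-2.45), the trafficking GTPase RAB25 (-2.29) and the simple-epithelium keratin KRT8 (-2.25) were lower too, while MAL2, a transcytosis protein, was higher (1.73). Of 24 epithelial markers 6 were higher and 8 lower (median -0.16), and without replicate 1 the counts were 7 and 9 (median -0.02).

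Squamous genes were lower in Hec-1A. Of 15 measured members 8 were lower and 0 higher (median -0.23, against -0.002 over all genes). KRT13, a keratin of stratified mucosa, read 7.25, 7.65 and 7.44 in Hec-1A and 11.90, 12.04 and 12.002 in RL95-2, with no overlap (-4.54 ± 0.10, adjusted p = 6.26e-07). The basal keratin KRT15 stood at -1.79 and the checkpoint protein SFN at -1.13, with TRIM29 at least 2.93-fold and the desmosomal cadherin DSC3 at least 2.93-fold lower. Of all 18 measured keratins 7 were lower (6 lower without replicate 1) and 1 higher, KRT80 (3.63), an epithelial keratin. Kallikreins, serine proteases of stratified epithelium among other tissues, had 2 lower members of 15, KLK5 (at least 28.2-fold) and KLK6 (-4.12), and 1 higher, KLK11.

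Mesenchymal genes were split. The transcription factors SNAI2 (-3.001), TWIST2 (at least 3.39-fold) and TWIST1 (at least 2.95-fold, named after its value was seen), known to repress epithelial genes, were lower in Hec-1A, whereas AXL, S100A4 and the membrane-actin linker MSN (2.10) were higher. Of 17 measured members 3 were higher and 4 lower, and 8 were at or below the array median in both lines. Vimentin, VIM, had means of 7.74 and 8.01 and did not pass (adjusted p = 0.112).

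Markers of other cell types lay partly at background. At or below the array median in both lines were 4 of 9 leukocyte and 7 of 8 endothelial markers. So were 7 of 14 fibroblast and smooth muscle markers and 3 of 4 erythroid and platelet markers. The smooth muscle actin ACTA2 had means of 8.095 in Hec-1A and 8.186 in RL95-2 and was not called. Of 9 leukocyte markers 2 were lower in Hec-1A, CD68 (-0.62, not called without any 1 of the RL95-2 arrays) and CORO1A (at least 1.23-fold; 2, 2, 2, 1, 1 and 1 lower with arrays left out in turn, 1 lower without normalization), with summed levels on the linear scale of 1037 to 1189 in Hec-1A and 1292 to 1399 in RL95-2, and PTPRC and CD3D were at background in both. Of 8 endothelial markers 1 was lower, CDH5 (at least 1.47-fold), with sums of 730.3 to 732.0 against 801.4 to 812.7, and PECAM1, VWF, KDR and TEK were at background in both lines. Of 14 fibroblast and smooth muscle markers 3 were lower, MYL9 (at least 2.02-fold), TAGLN (-0.60) and COL1A1 (-0.58), beside 1 higher without normalization, with sums of 1513 to 1596 against 1772 to 1843, and DCN, LUM, PDGFRB and DES were at background in both. Of 4 erythroid and platelet markers 0 were called by limma, with or without replicate 1 and on the treated arrays. The part of these markers in the other results was not tested.

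Cell adhesion and the cytoskeleton differed through single members. The transmembrane 4 families had 8 higher and 5 lower of 22 measured. Beside TM4SF1 and TM4SF4 stood TM4SF19 (at least 3.27-fold higher), and the tetraspanins TSPAN13 (-1.82) and CD82 (-1.81), a metastasis suppressor, were lower. Among cadherins and catenins 4 were higher and 4 lower of 14 (5 higher without replicate 1), with CDH6, a kidney and Müllerian cadherin, at least 3.89-fold higher and the protocadherin PCDH7 at -1.45. Of 28 actin cytoskeleton and focal adhesion genes 10 were higher (13 higher without replicate 1), led by CALD1 (caldesmon, 3.29), MSN, the actin-bundling palladin PALLD (1.75) and the myosin MYH10 (1.64), and 6 were lower, led by the tropomyosin TPM1 (-2.32). Among laminins the chain gene LAMB3 was higher (2.02), LAMB1 lower (-1.15, not called in 1 of the 6 fits that leave out an array) and LAMC3 lower (at least 1.91-fold).

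The tight junction gene CLDN1 read 12.89, 11.88 and 12.02 in Hec-1A and 8.85, 8.82 and 8.70 in RL95-2 (3.47 ± 0.25, adjusted p = 0.000124), and CLDN16, a claudin of kidney epithelium, was at least 7.94-fold higher. All Hec-1A arrays lay above all RL95-2 arrays for CLDN1. Of 17 tight junction genes 8 were higher and 1 lower (8, 6, 5, 5, 4 and 5 higher and 1, 1, 0, 0, 0 and 0 lower with arrays left out in turn, 0 lower without normalization). Of 19 integrins 5 were higher and 3 lower (8, 7, 5, 5, 4 and 4 higher with arrays left out in turn, 1 lower without normalization, 8 higher with all 18 arrays), with ITGB3 (at least 3.69-fold) and ITGA3, a laminin receptor chain (1.23), on top. The sodium pump genes split: its beta chain ATP1B1 was higher (2.81) beside FXYD2, and FXYD5, which weakens cell adhesion, was lower (-3.29). Of 19 annexins and galectins 4 were higher and 6 lower (7, 5, 3, 3, 3 and 3 higher with arrays left out in turn, 8 higher with all 18 arrays, 7 higher with array weights), led by ANXA3 (3.47) and, lower, LGALS3 (-1.81).

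Collagens had a median difference of -0.004, and of 24 members 8 were lower and 3 higher (7 lower without replicate 1, 5 lower without normalization). COL4A5 (-1.80), COL5A1 (at least 2.44-fold) and COL12A1 (-1.32) were lower, while COL18A1, which holds the endostatin fragment, was higher (2.88). Serpins, inhibitors of serine proteases, were higher in 7 of 18 and lower in 4. SERPINE2 led the lower ones (-4.64), and SERPINI1 (at least 3.29-fold) and SERPINB1 (1.63) the higher ones.

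Most measured genes of the Notch pathway were lower in Hec-1A. In this pathway a ligand on 1 cell triggers the cleavage of a receptor on its neighbour, whose inner part switches on HES and HEY repressors. Of 20 measured members 13 were lower and 2 higher (median -0.89), with the same counts without replicate 1 (median -0.90) and on the treated arrays (median -0.78), and 2, 3, 1, 2, 1 and 1 higher with arrays left out in turn. Among ligands, DLL1 read 6.51, 6.51 and 6.49 in Hec-1A and 10.56, 10.47 and 10.70 in RL95-2, at background against bright (at least 15.3-fold, adjusted p = 1.56e-07). JAG2 read 6.60, 6.72 and 6.71 against 10.39, 10.04 and 10.53, again with no overlap (-3.65, adjusted p = 3.47e-06). The receptor NOTCH3 stood at -1.80, named after its value was seen. The fringe enzyme LFNG, which modifies the receptor, was lower (-2.35), as were the targets HES2 (at least 6.8-fold) and HES4 (-2.69). The members called higher were NUMB, an inhibitor of Notch (1.02), and the fringe enzyme MFNG (0.26, not called in 3 of the 6 fits that leave out 1 array). NUMB and MFNG were chosen after their values were seen, because they are the only exceptions.

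The HOXD cluster, an array of neighbouring homeobox genes on chromosome 2, was lower in 6 of 9 members with 0 higher (median -0.29; 3 lower without normalization). HOXD11 (-1.62) and HOXD13 (at least 2.27-fold) led, followed by HOXD8 (-0.69). Of the BMP and TGF-beta pathway 9 of 34 were higher and 11 lower (11 higher without replicate 1). The ID genes, which are BMP targets that block basic helix-loop-helix factors, were lower for ID3 (-5.47) and ID1 (-2.51). ID3 read 7.29, 7.98 and 7.95 against 13.11, 13.28 and 13.24, with replicate 1 below its fellows and all far below RL95-2. The ligands BMP7 (at least 6.1-fold) and GDF15 (-2.20) were lower, whereas the receptor TGFBR2 was higher (2.23). Among genes of retinoid metabolism 4 of 15 were higher and 6 lower (7 lower without replicate 1). The enzymes split, with ALDH1A1, a retinoic acid synthase, at least 3.35-fold higher and DHRS3, a retinal reductase, at -1.62, with RDH11, a retinol dehydrogenase, at 1.86. Of the receptors RARA was higher (1.65) and RXRA lower (-1.49).

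**Figure D3:**
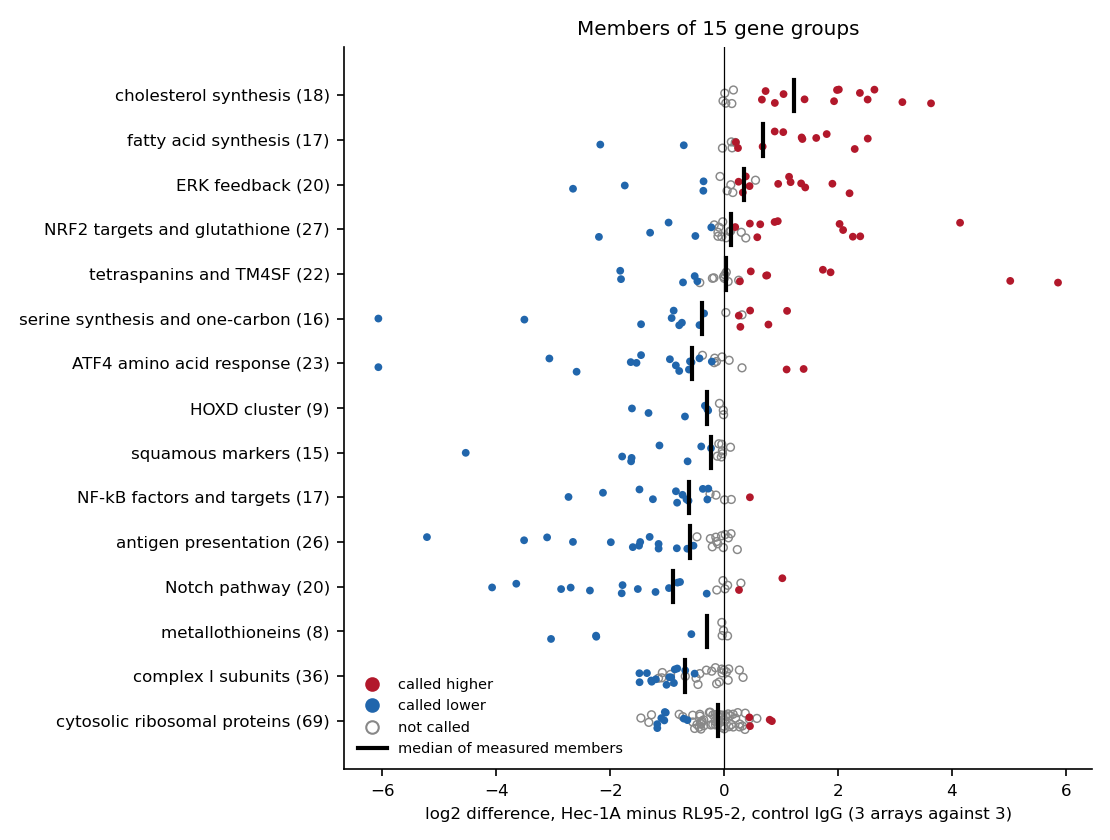
Log2 difference between Hec-1A and RL95-2 under control IgG for each measured member of 15 gene groups (number measured in brackets). Filled points are called, open points are not, and the black bar is the median of the measured members. Cholesterol synthesis has 13 members higher and 0 lower, and Notch 2 higher and 13 lower.

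Lipid synthesis genes were higher in Hec-1A. Of 18 measured genes of cholesterol synthesis 13 were higher and 0 lower (median 1.23). ACAT2, which makes the first intermediate, acetoacetyl-CoA, read 10.42, 10.35 and 10.51 in Hec-1A and 6.75, 6.81 and 6.82 in RL95-2, with no overlap (3.64 ± 0.06, adjusted p = 1.32e-07). IDI1, the isopentenyl diphosphate isomerase, read 11.58, 10.90 and 11.22 against 8.75, 8.86 and 8.52 (2.52), and the sterol isomerase EBP at least 8.31-fold higher. Without replicate 1 the count was 14 (median 1.29), and the treated arrays gave 17 higher and 1 lower (median 1.28). Of 17 genes of fatty acid synthesis 11 were higher and 2 lower (median 0.68, and 0.70 without replicate 1; 1 lower without normalization). FADS1, a desaturase of polyunsaturated fatty acids, led (at least 5.05-fold, adjusted p = 8.59e-07), with ACLY, which supplies cytosolic acetyl-CoA, at 1.80 and the stearoyl desaturase SCD at 1.62. ACSL4, which activates arachidonate, stood at 2.29 and lost its call in 1 of the 6 fits that leave out an array. The lower members were the desaturase SCD5 (at least 4.14-fold) and SREBF1, the gene of the lipid regulator SREBP1 (-0.71), the latter chosen after its value was seen. Its protein is a known activator of fatty acid synthesis genes.

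Most genes of the amino acid response were lower, and serine and 1-carbon genes moved in both directions. PHGDH, the first enzyme of serine synthesis, read 6.58, 6.67 and 6.63 in Hec-1A and 12.79, 12.45 and 12.86 in RL95-2, at background on every Hec-1A array (at least 66.2-fold, adjusted p = 2.06e-07). GLDC, the glycine decarboxylase that feeds 1-carbon units to folate, read 8.24, 8.11 and 8.25 against 11.69, 11.67 and 11.75, with the arrays of each line close together (-3.51 ± 0.06). Of 16 measured serine and 1-carbon genes 9 were lower and 5 higher (median -0.39; 6, 5, 2, 3, 2 and 3 higher with arrays left out in turn), among them the folate enzyme MTHFD2 (-1.46) and, higher, MTRR, a methionine synthase reductase (1.11). On the treated arrays 7 were lower and 7 higher (median -0.06). Of 23 genes of the amino acid response, among them its factor ATF4, 14 were lower and 2 higher (median -0.57, and -0.56 with 3 higher without replicate 1). They included both chains of the large neutral amino acid transporter, SLC7A5 (-3.07) and SLC3A2 (-1.54), and the factor CEBPB (-2.59). PHGDH and MTHFD2 belong to both lists.

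Hypoxia and glycolysis genes moved in both directions. SLC2A3, the high-affinity glucose transporter, read 6.91, 6.79 and 6.88 against 11.98, 11.61 and 11.92 (-4.98). HK1, the hexokinase that traps glucose in the cell, read 8.11, 8.23 and 8.08 against 11.88, 11.66 and 12.10, with no array near the other line (-3.74 ± 0.11, adjusted p = 2e-06). Of 35 hypoxia and glycolysis genes 14 were higher and 8 lower (median 0.21; 19 higher and 10 lower without replicate 1). ADM and DDIT4, an mTOR inhibitor (-2.73), were lower, and PFKFB4, a regulator of phosphofructokinase, was higher (1.598).

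Redox and metal genes moved in both directions. Of 27 NRF2 target and glutathione genes 11 were higher and 5 lower (median 0.12; 5, 4, 4, 3, 3 and 3 lower with arrays left out in turn, 12 higher without replicate 1, 3 lower without normalization). The thioredoxin reductase TXNRD1 was higher (2.26), as were ME1 and the glutathione transferases GSTM1 (at least 4.88-fold) and GSTM2 (at least 3.97-fold), near-identical genes whose probes may not tell them apart. GPX1, the main glutathione peroxidase, read 9.46, 10.41 and 10.42 against 12.12, 12.28 and 12.49. It was lowest on replicate 1, and its difference of -2.20 became -1.88 without that array. Of 8 metallothioneins, small zinc and copper binding proteins, 4 were lower and 0 higher: MT2A (-3.04), MT1X (-2.25), MT1G (-2.24) and MT1E (-0.57), whose close similarity also leaves each single value uncertain. Without replicate 1, though in none of the other 5 fits that leave out an array, 1 member was called higher.

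Antigen presentation genes and NF-kB targets were lower in Hec-1A. Of 26 antigen presentation genes 14 were lower and 0 higher (median -0.59, and -0.47 with 16 lower without replicate 1). The class I gene HLA-B read 6.62, 6.73 and 6.46 in Hec-1A and 11.72, 11.69 and 12.05 in RL95-2 (at least 35.5-fold lower), and HLA-F (at least 10.5-fold), HLA-E (-3.11) and the immunoproteasome subunit PSMB10 (-2.65) followed. These class I genes are highly similar and polymorphic, so a single probe is an uncertain measure of 1 of them. The peptide-loading protein TAPBP stood at -1.99. Of 17 NF-kB factors and targets 12 were lower and 1 higher (median -0.62, and -0.52 without replicate 1), with the inhibitors NFKBIA (-2.73), NFKBIZ (-1.49) and NFKBIE (-1.25) and the adaptor TNIP1 (-2.13) in front. The exception was CFLAR, an inhibitor of death receptor signals (0.45, chosen after its value was seen). Of 28 chemokines and cytokines 9 were lower and 3 higher (4 higher without replicate 1), and the neutrophil chemokine CXCL1 read 6.86, 6.96 and 6.92 against 11.07, 10.51 and 11.07 (-3.97), with CXCL16 at -3.97. CCL5, which draws T cells, stood at -2.10.

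Interferon genes did not move as 1. Of 28 measured members 10 were lower and 5 higher (median -0.05), and 10 and 9 without replicate 1 (median 0.01; 9, 5, 5, 4, 4 and 4 higher with arrays left out in turn, 9 higher without normalization, 9 higher with median scaling, 8 higher with all 18 arrays, 9 higher with array weights). BST2, a membrane tether of enveloped viruses, read 6.73, 6.68 and 6.58 against 11.08, 11.07 and 11.04 (-4.40 ± 0.05, adjusted p = 7.02e-08), the lines far apart. The factor IRF1 (-2.66), the ISG15 ligase HERC5 (-2.29) and the RNA sensor IFIH1 (-1.61) were lower as well, and IFITM1 was at least 4.11-fold lower. Of 17 genes of endoplasmic reticulum stress 7 were lower and 2 higher (median -0.38; 2, 2, 1, 2, 1 and 1 higher with arrays left out in turn, 10 lower without replicate 1, 1 higher without normalization, 1 higher with median scaling), with the ubiquitin ligase SYVN1 at -1.70 and the factor XBP1 at -1.34. Of 20 heat shock genes 7 were higher and 4 lower (7, 7, 6, 5, 4 and 4 higher with arrays left out in turn, 5 lower without replicate 1, 4 higher with median scaling). The small heat shock protein HSPB1 was lower (-3.12), while the HSP70 family members HSPA4 (1.72) and HSPA8 (1.36) were higher. In blood clotting, the anticoagulant PROS1 (3.75) and the tissue factor inhibitor TFPI (2.77) were higher and its relative TFPI2 lower (-2.72).

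Single growth factor ligands and binding proteins differed between the lines, and the receptor the study targets was at background. PDGFRA, the receptor of PDGF-AA, read 6.55, 6.54 and 6.58 in Hec-1A and 6.68, 6.60 and 6.60 in RL95-2, and PDGFRB had means of 6.52 and 6.54, so both were at or below the array median and neither passed (adjusted p = 0.401 and 0.82). The ligand PDGFA was lower in Hec-1A, at 6.61, 6.87 and 6.72 against 8.56, 8.44 and 8.63 (-1.81 ± 0.08, adjusted p = 1.42e-05). PDGFC was higher (1.04 ± 0.16), and PDGFRL, a receptor-like protein, lower (-0.33). Of 27 EGF, FGF and IGF ligands and binding proteins 6 were higher and 7 lower (6 lower without replicate 1), shares no larger than those of the bright genes. At or below the array median in both lines were 11 of them. The IGF-binding proteins split, with IGFBP7 (-4.73) and IGFBP5 (-3.53) lower and IGFBP6 (at least 7.93-fold) higher, and the EGF receptor ligand TGFA was higher (2.37). Of 34 receptor tyrosine kinases 11 were lower and 4 higher (5 higher without replicate 1). FGFR3 (-2.43) and PTK7 (-2.13) were lower, and AXL and MET, the hepatocyte growth factor receptor, were higher. MET read 12.70, 11.39 and 11.57 against 10.36, 10.19 and 10.28, with replicate 1 well above its fellows (1.61, and 1.20 without it), and it was called in 3 of the 6 fits that leave out an array. Of 8 ephrins, the membrane ligands of EPH receptors, 3 were lower, EFNA1 (-2.19), EFNB2 (-1.60) and EFNA4 (-1.17).

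Of 20 genes in ERK feedback 11 were higher and 4 lower (median 0.36, and 0.33 without replicate 1; 12 higher without replicate 1). The phosphatase DUSP5 (2.20) and the ETS factor ETV5 (1.90) were higher, with SPRY4, an inhibitor of receptor signalling, at 1.43, and PHLDA1 (-2.65) and the lipid kinase SPHK1 (at least 2.95-fold) were lower. Of 15 YAP target genes 6 were higher and 2 lower (3 lower without replicate 1), with the ectonucleotidase NT5E (2.58) and tissue factor, F3 (2.29), higher beside AXL, and FSTL1 lower (-2.37). Of 21 D cyclins and G1 regulators 9 were lower and 4 higher (6 higher and 10 lower without replicate 1, 5 lower without normalization). CCND2 was at background in Hec-1A while CCND1, another D-type cyclin, was higher at 13.50, 12.94 and 13.19 against 11.99, 11.78 and 11.97 (1.29 ± 0.14, adjusted p = 0.000868). MYCN (at least 2.33-fold) and E2F2 (-1.20) were lower. Of 37 Wnt genes 9 were lower and 4 higher (6 higher and 11 lower without replicate 1, 7 higher with all 18 arrays), shares no larger than those of the bright genes, with the secreted inhibitor SFRP1 (at least 4.55-fold) and the nuclear partner of beta-catenin LEF1 (at least 2.87-fold) lower. In the insulin pathway the receptor substrate IRS2 was higher (1.59) and IRS1 lower (-0.77), and the factors FOXO1 (1.06) and FOXO3 (-0.997) parted in the same way. Of 22 imprinted genes 6 were lower and 3 higher (4, 2, 1, 1, 1 and 1 higher with arrays left out in turn), and after H19 the mannose 6-phosphate and IGF2 receptor IGF2R led (-2.82). Of 16 genes recurrently mutated in endometrial cancer 6 were higher and 2 lower (2, 2, 1, 2, 2 and 2 lower with arrays left out in turn, 1 lower without normalization, 1 lower with median scaling), including the chromatin remodeller ARID1A (1.49) and CTNNB1 (0.98), which encodes beta-catenin, among the higher ones.

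Cell division genes depended on the arrays used. Of 30 mitosis genes 7 were higher and 6 lower (median 0.19), 12 and 7 without replicate 1 (median 0.11), and 6 and 14 on the treated arrays (median -0.18; 12, 9, 5, 5, 5 and 6 higher with arrays left out in turn, 7 lower without replicate 1, 13 higher with all 18 arrays). The mitotic kinesins KIF23 (1.48) and KIF20A (1.42) were higher and the centromere histone CENPA lower (-1.35). Of 35 DNA replication genes 10 were higher and 5 lower (median 0.08) (17, 9, 9, 9, 8 and 7 higher and 5, 4, 4, 2, 2 and 2 lower with arrays left out in turn, 2 lower without normalization, 3 lower with median scaling). The clamp loader subunit RFC3 (1.44) and the helicase subunit MCM6 (0.96) led.

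Counts for the respiratory chain changed when single arrays were left out, and more subunits were called lower without replicate 1. Of 36 measured complex I subunits 14 were lower and 0 higher (median -0.68). Without Hec-1A replicate 1 the counts were 19 lower and 2 higher (median -0.49), and on the treated arrays 16 lower and 5 higher (median -0.18). On replicate 1 these subunits lay at a median of -0.81 from its fellows, against -0.04 over the 7921 bright genes. The count also moved by over 1.5 times without other arrays, to 9 without Hec-1A replicate 3 and to 6, 4 and 4 without RL95-2 replicates 1, 2 and 3. Calls over all probes fell in these fits too, from 8928 to 7138 without Hec-1A replicate 3. Without RL95-2 replicates 1, 2 and 3 they fell to 6477, 6736 and 6364. Of 12 complex IV subunits 3 were lower (median -0.57), against 6 (median -0.28) without replicate 1, 4 without Hec-1A replicate 2 and 0 without any single one of the 4 other arrays, and 6 were lower with all 18 arrays. Of 15 ATP synthase subunits 2 were lower and 2 higher (2, 1, 1, 1, 2 and 1 higher and 7, 6, 1, 1, 1 and 1 lower with arrays left out in turn, 1 higher without normalization, 0 higher and 4 lower with median scaling, 1 higher and 7 lower with all 18 arrays, 4 lower with array weights). NDUFA3, a complex I subunit, read 9.29, 11.21 and 10.73 in Hec-1A and 11.001, 11.18 and 11.09 in RL95-2, with replicate 1 far below the RL95-2 arrays, replicate 3 just below and replicate 2 just above them. The difference of -0.68 (adjusted p = 0.431) became -0.12 without it.

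Counts for ribosomal proteins changed with single arrays as well, and more were called in both directions without replicate 1. Of 69 measured cytosolic ribosomal proteins 8 were lower and 4 higher (median -0.11), and 18 and 8 (median -0.04) without replicate 1, where they lay at a median of -0.37 from its fellows. The counts were 8, 3, 4, 2, 3 and 3 higher and 18, 17, 6, 0, 0 and 0 lower with arrays left out in turn, 2 higher and 13 lower with median scaling, 2 higher and 23 lower with all 18 arrays, 14 lower with array weights. Of 57 mitochondrial ribosomal proteins 14 were lower and 4 higher (median -0.26). Without replicate 1 this became 20 lower and 10 higher (median -0.03), and on the treated arrays 15 lower and 21 higher (median 0.03). They numbered 10, 3, 5, 2, 3 and 2 higher and 20, 18, 11, 8, 8 and 7 lower with arrays left out in turn, 7 higher without normalization. Many members of both families have processed copies elsewhere in the genome, which the probes may also bind. RPS21 read 8.12, 10.002 and 9.55 against 10.46, 10.60 and 10.57 and was called only without replicate 1 (-0.77, adjusted p = 0.00034, against -1.32 at adjusted p = 0.0955 with it).

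Complex III held 1 of the larger differences, at -5.62 with replicate 1 and -5.63 without it. UQCRH, its hinge subunit, read 6.54, 6.58 and 6.48 in Hec-1A and 12.32, 12.24 and 11.91 in RL95-2, at background in the former, for at least 45.9-fold (adjusted p = 2.69e-07). Its near-identical copy UQCRHL read 7.17, 7.12 and 7.21 against 13.06, 12.99 and 13.04 (-5.86), and the 2 probes may bind the same transcript. Of the 10 measured genes on each side of UQCRH in gene order along chromosome 1, 6 were called, 4 lower and 2 higher. This stands beside 27.9% called of all genes, so the count is no result about the region. The neighbours named here were chosen by their place beside UQCRH, outside the rule for naming genes. The neighbour before it, LRRC41, a substrate receptor of a ubiquitin ligase, was lower with means of 7.31 and 9.88 (-2.58, adjusted p = 4.32e-06). The DNA repair gene RAD54L 2 places before it was at -0.28, the glycosyltransferase POMGNT1 4 places before it at -1.41, and MOB3C, a kinase regulator of the MOB family 7 places after it, at -0.64. The higher ones were the kinase MKNK1 6 places after it (0.57) and GPBP1L1 10 places before it (0.86). LURAP1, between POMGNT1 and RAD54L, and NSUN4, next after UQCRH, did not pass (-0.07 and 0.21). The differences of LRRC41 and POMGNT1 had the same sign on the treated arrays (-2.26 and -1.15).

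The direction of the called genes was uneven over the chromosomes. Over all genes called with all 6 arrays 47.6% were higher in Hec-1A. Without replicate 1, 3558 genes were called higher and 3495 lower, and on the treated arrays 3836 and 3755. On chromosome 3, 277 were higher and 80 lower (77.6%), and on chromosome 8, 53 higher and 176 lower (23.1%). These shares stayed close without replicate 1 (78.8% and 23.8%) and on the treated arrays (76.7% and 20.4%). The median difference of bright genes was 0.44 on chromosome 3, with 461 such genes, and -0.34 on chromosome 8, with 290. On chromosome 9 61.1% were higher, and 63.9% and 67.6% in those fits. Chromosomes 16, 19 and 22 behaved otherwise. Their shares were 26.4%, 33.6% and 24.8% with all 6 arrays and 42.8%, 57.3% and 41.0% on the treated arrays. The genes of chromosomes 16 and 19 had the shorter medians of length among these, 19422 and 14398 bases against 36935 for chromosome 3. Chromosome 17, with a median of 19270 bases, had shares of 54.2% and 65.5%, and chromosome 11, with 19801, of 40.7% and 47.0%. DNA copy number was not measured, and its part in these shares was not tested.

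**Figure D4:**
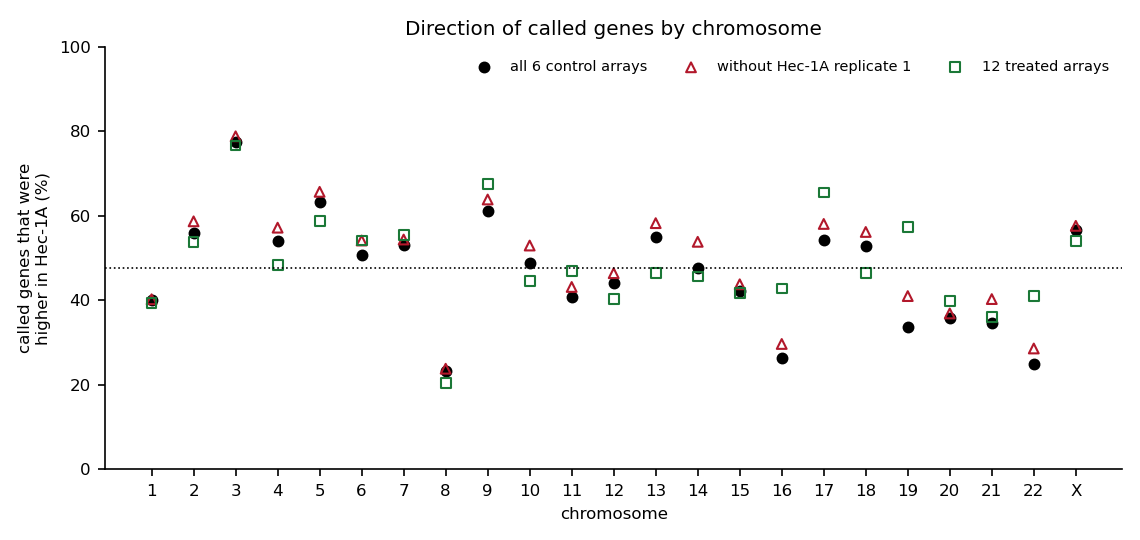
Share of called genes that were higher in Hec-1A (per cent) by chromosome, over all 6 control arrays (filled circles), without Hec-1A replicate 1 (triangles) and over the 12 treated arrays (squares). The dotted line is the share over all genes called with all 6 control arrays, 47.6%. Chromosome 3 lies between 76.7% and 78.8% and chromosome 8 between 20.4% and 23.8%, while chromosome 19 moves from 33.6% to 57.3%.

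The departure of Hec-1A replicate 1 followed the length of the gene. Bright genes were divided into 5 groups of 1584 by the length of the gene in the RefSeq table, with median lengths of 4687, 14151, 28276, 53366 and 133464 bases. On replicate 1 the median departure from its fellows was -0.30, -0.15, -0.01, 0.10 and 0.19 from the shortest to the longest group. Hec-1A replicate 2 ran the opposite way, from 0.20 to -0.15, and replicate 3 from 0.12 to -0.05, as departures from fellows that include replicate 1. The RL95-2 arrays stayed between -0.03 and 0.05 in every group. The 337 genes at least 2-fold above on replicate 1 had a median length of 62543 bases and the 171 below one of 4437. The cause was not tested.

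**Figure D5:**
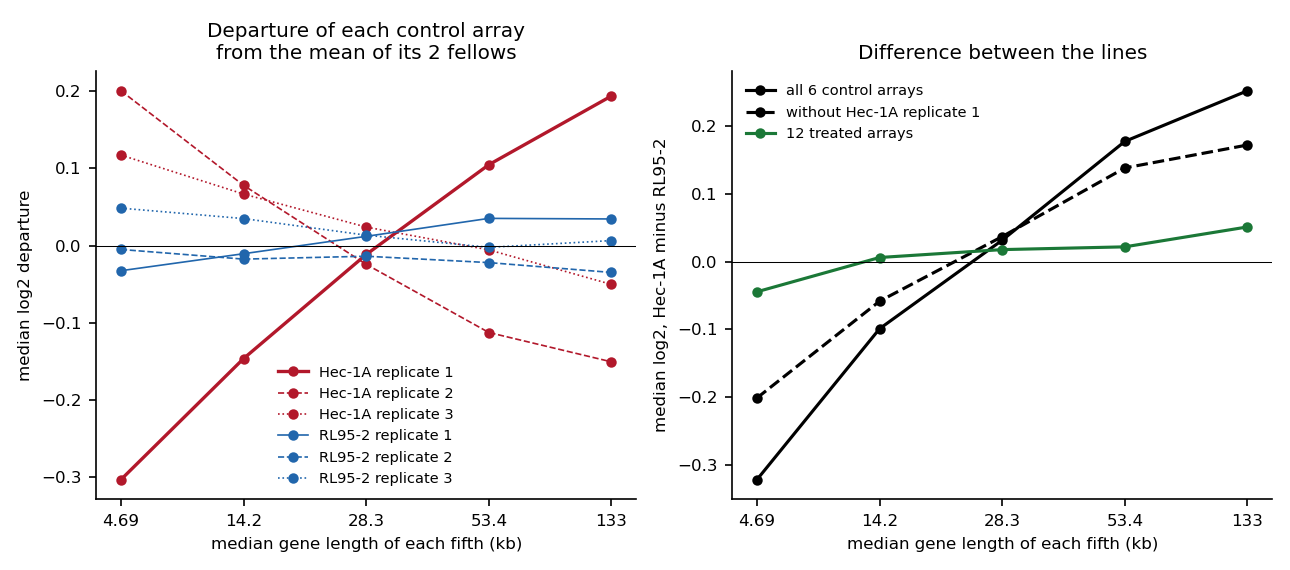
Left, median log2 departure of each control IgG array from the mean of its 2 fellows, by group of gene length (horizontal axis, median length in kb, 1584 bright genes in each). Right, median log2 difference between the lines in the same groups. Replicate 1 of Hec-1A runs from -0.30 to 0.19, and the difference between the lines runs from -0.32 to 0.25 with all 6 arrays but from -0.04 to 0.05 on the treated arrays.

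The same gradient was present in the difference between the lines. It ran from -0.32 in the shortest to 0.25 in the longest group with all 6 arrays, from -0.20 to 0.17 without replicate 1, and from -0.04 to 0.05 on the 12 treated arrays. Among the shortest 1584 genes 213 were called higher and 589 lower with all 6 arrays, beside 24.9% and 27% of all bright genes. On the treated arrays the counts were 495 and 598, beside 2828 higher and 2616 lower of all 7921 bright genes. So leaving out replicate 1 narrowed the gradient in the control comparison but did not remove it.

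Genes that replicate 1 displaced most show what the comparison gains and loses with it. ITGAV, the alpha-V integrin, read 10.43, 8.16 and 8.09 in Hec-1A and 7.21, 7.41 and 7.32 in RL95-2, so replicate 1 stood 2.30 above the mean of its fellows. With it the difference was 1.58 ± 0.60 and did not pass (adjusted p = 0.137), and without it 0.81 ± 0.07 (adjusted p = 7.87e-06), while the treated arrays gave -0.20. CD2AP, an adaptor between membrane proteins and actin, read 10.24, 8.02 and 7.97 against 6.80, 6.85 and 6.69 and moved from 1.96 (adjusted p = 0.0631) to 1.22 (adjusted p = 1.94e-07), with 0.52 on the treated arrays. The nuclear export receptor XPO1 read 11.82, 9.54 and 9.63 against 9.22, 9.57 and 9.28, where replicate 1 stood far above RL95-2 and its fellows at the upper end of the RL95-2 range. ISG15, an interferon-induced ubiquitin-like protein, was displaced downwards, at 9.19, 10.73 and 10.67 against 8.78, 8.93 and 8.98, and its difference rose from 1.30 (adjusted p = 0.0683) to 1.81 (adjusted p = 1.48e-08) without replicate 1. On the treated arrays it was 2.33.

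As groups, the 337 genes above on replicate 1 had a median difference of 0.97 between the lines with all 6 arrays, 0.54 without it and -0.004 on the treated arrays. Of them 96 were called with replicate 1 and 267 without it. The 171 genes below had medians of -0.77, -0.35 and 0.018, and 51 and 122 were called. These groups were chosen by their values on replicate 1, so the first of each set of medians is a description. The rise in calls is likewise a description, because leaving out that array narrows the Hec-1A spread of genes so chosen. Of all 7921 bright genes, 1974 were called higher and 2137 lower with replicate 1, and 2702 and 2671 without it. Among genes called with replicate 1 in the fit, leaving it out moved the median gene by 0.057, and 19 moved by more than 0.5. Of all genes 78 moved that far. A gene displaced by replicate 1 has a wider Hec-1A spread and is harder to call, so the choice partly fixes this shift. Of the 1666 called genes that differed at least 2-fold, 279 fell below 2-fold.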

How the data were processed

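Total RNA of both lines was labelled with biotin and measured on Illumina bead arrays. The authors deposited log2 expression values and a table of signal intensity that is not normalized, each with 47231 probes and a column for every array. The submitters' processing notes name BeadStudio, with no version. The log2 values differed by at most 0.0438 from a quantile normalization of log2 intensity, with a floor at 16, so the authors' values are quantile-normalized with background left in. No detection p-values were used.

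The 6 control IgG arrays were fitted with limma 3.58.1 (R 4.3.3, lmFit and eBayes, 4 residual and 2.68 prior degrees of freedom), with 2-sided tests, no filter and Benjamini-Hochberg adjustment over all probes, with a threshold of 0.05. Of the probes 30113 carried 1 symbol, 8 several and 17110 none in GEO's platform annotation, and 30074 were matched by Entrez ID to the RefSeq gene table (GRCh38.p14), used for names, chromosomes, gene order and gene length. Each gene stands by its probe of highest mean. A gene at or below the array median in 1 line was given a fold with that line's arrays raised to the median, as "at least". The members and the 77 gene lists were chosen with earlier results of these data known. Genes were named by rule: the 15 largest called differences each way without overlap, up to 5 called members per list, the 10 genes each way that replicate 1 displaced most, up to 5 genes each way whose call depends on it, and the PDGF family. Some were left out for length. List members that were not called, such as CDH1, VIM, ESR1, PGR and ACTA2, were named outside the rule without a mark. Other genes outside the rule are marked. Same-numbered arrays of the lines did not deviate together in every pair (correlations of deviations 0.20, -0.08 and 0.24), so numbers were not used as pairs. The fit of the 6 control arrays was repeated under 19 alternatives, the fits without 1 array among them, and the treated-array fit was not. The model was also run on simulated data, with no result given here. The number of arrays limits the precision. Figures were drawn with matplotlib 3.10.9.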

Additional observations from a re-analysis of the deposited data

How the results depend on the processing

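Of the 20 settings run for the count of called probes, most stayed within 1.5 times of the 8928 reported. The exceptions were a stricter threshold of 0.01, which left 5645, and limma's treat test against a fold of 1.5, which left 1964. Leaving out 1 array at a time gave 6364 to 11191 called probes, the highest without Hec-1A replicate 1 and the lowest without RL95-2 replicate 3, and 3779 genes were called in all 6 of these fits. With the replicate number as a block 8577 probes were called, and not every array deviated most like the array of its own number: Hec-1A replicate 2 correlated best with RL95-2 replicate 3, at 0.25, as a hint from the data and not the design. Measured against the 8 other Hec-1A arrays in place of its 2 fellows, replicate 1 lay at least 2-fold away for 824 genes instead of 508, of which 503 were shared with the same sign, and the cause was not tested. Of 365 named genes 2 changed sign while called in 1 of the fits compared. Genes called in neither fit are not counted, and PDGFRA and PDGFRB, both at background, went from just below to just above 0 without normalization. The NAP1L1 log2 difference went from 0.44 to -0.21 without Hec-1A replicate 1, which lay 1.93 above its fellows there, and to 0.77 without Hec-1A replicate 2. The THOP1 log2 difference went from -0.24 to 0.00696 without normalization between arrays, where the median of all probes moved by 0.10. Of the 339 named genes called, 313 stayed called without normalization, 320 with median scaling, 321 with the replicate block and 333 to 337 under the other background corrections and fits that test against no change. The treat test left 221 and a threshold of 0.01 left 287. The filter at the 75th percentile kept 315 of them, of which 311 stayed called, and that at the array median 338, all still called. In the fits without 1 array 290 to 329 stayed called. Background left in the signal limits what can be said of dim genes, and 6771 genes lay at or below the array median in both lines.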
